A study of Homo sapiens with 12 samples.

Results

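Semaphorins, ephrins, slits and netrins are the main families of axon guidance cues, and plexins, neuropilins, EPH, ROBO, DCC and UNC5 proteins are their receptors. The genes described here are the protein-coding members of these families by name, 67 in a table of 58735 human genes. Levels are in FPKM, fragments counted and scaled to the exonic length of the gene and to a size factor of each library. Of the 67 genes, 50 had a mean of at least 0.5 FPKM over all 12 libraries. Members were thus chosen by name and by that mean, and the families were picked with earlier results of these data known. Just inside the minimum were SEMA4A and EPHA1, with means of 0.525 and 0.633 FPKM, and just outside it were PLXNC1 and SLIT1, with 0.38997 and 0.303.

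The libraries came from 2 human neuroblastoma lines, cultured cells of tumours of the sympathetic nervous system, with 4 groups of 3 libraries each and no treatment in any group. All labels name the first line SK-N-SH. They name the second in 2 ways, as SK_N_BE2 in titles and as SH-SY5Y elsewhere, and it is called the second line here. In each line the control group has the genotype label WT and a title ending in shNC, and the knockdown group is labelled TSPYL5 knockdown, with shL5 in the title. TSPYL5 encodes a TSPY-like protein of the nucleosome assembly family. All RNA was made into libraries from 3 µg with 1 kit. The labels do not say whether the hairpins were carried by clones or by pools of cells. Nor do they say that replicates came from separate cultures, and the spread behind each p-value may therefore be technical.

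Guidance cues steer growth cones and migrating cells by attraction or repulsion. Secreted class 3 semaphorins bind neuropilins, which signal through plexins, while membrane semaphorins mostly bind plexins directly. Ephrins are bound to the membrane and meet EPH receptor tyrosine kinases on neighbouring cells, slits bind ROBO receptors, and netrins bind DCC and UNC5 receptors. Sympathetic neurons and their neural crest precursors use many of these systems during migration and innervation.

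The libraries held 15425460 to 19249018 reads, and mitochondrial genes took 6.25% to 8.23% of them. The level of TSPYL5 did not follow the label in SK-N-SH: control libraries held 13.1, 13.4 and 12.2 FPKM and those labelled knockdown 17.1, 18.3 and 17.8. In the second line control libraries held 24.04, 24.4 and 25.8 FPKM and knockdown libraries 13.3, 12.4 and 12.6. MYCN stood at means of 1028 and 1040.4 FPKM in SK-N-SH knockdown and the second line control, at 0.0408 in SK-N-SH control and at 0 reads in second line knockdown. By MYCN, SK-N-SH knockdown thus resembled the control of the second line, and second line knockdown resembled SK-N-SH control. Whether labels of line or hairpin were exchanged between libraries was not tested. Groups are named by their labels, and a fold within a line compares libraries that carry that line's label, which may not be cells of 1 line. The summed level of 10 noradrenergic neuroblast markers was 1218 to 1420.3 FPKM over the 6 libraries of the MYCN-high groups and 70.6 to 97.3 in the other 6, where TH had 0 reads. The sum of 10 mesenchymal markers was 224 to 242 FPKM in the former, where MEOX1 had 0 reads, and 832 to 906 in the latter. Lists for Schwann, endothelial, blood and epithelial cells summed to at most 2.31, 0.903, 1.57 and 2.75 FPKM in any library. Within the mesenchymal list TWIST1 ran the other way, at means of 126 and 134 FPKM in SK-N-SH knockdown and the second line control against 73.03 and 46.9 in SK-N-SH control and second line knockdown, so it makes up most of the lower sum. MYCN and both marker sums differed between control and knockdown libraries of each line, beside every within-line difference below, and their part in those differences was not tested. In bulk libraries, fewer cells of a type and less RNA per cell cannot be told apart.

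The labelled knockdown comparisons set the libraries labelled as TSPYL5 knockdown beside the control libraries of the same line label, although TSPYL5 itself was higher with that label in SK-N-SH. With the knockdown label in SK-N-SH, 17 guidance genes were higher and 30 lower than in control. Thus 47 of 50 passed the threshold of 0.05 on limma's Benjamini-Hochberg adjusted p, where 79.8% of all 15856 genes tested passed, 40.7% higher and 39% lower. In the second line 28 were higher and 16 lower, 44 of 50, where 80% of all genes passed, 39.9% higher and 40.2% lower. At an absolute log2 fold of at least 1 as well, 35 and 31 guidance genes passed, against 31.1% and 31.7% of all genes. The median log2 fold of the 50 genes was -0.61 in SK-N-SH and 0.52 in the second line, beside 0.02 and -0.02 over all genes tested, and the median absolute log2 fold was 1.30 in both, beside 0.64. Some members, SEMA6D and ROBO2 among them, reached the minimum level only through the groups where they were high, so these counts describe the table and carry no further weight. Log2 folds are on the scale of log2(FPKM + 1), which understates the change of low genes, and folds are ratios of group mean FPKM.

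The labelled effects mostly ran in opposite directions in the 2 lines. Of the 50 genes, 27 were lower with the knockdown label in SK-N-SH and higher with it in the second line, 15 were higher in SK-N-SH and lower in the second line, EPHB4 was higher in both and none was lower in both. Of all genes tested, 34.2%, 35.1%, 0.984% and 0.732% fell into these classes, so opposite calls were the rule across the table as well. The difference between the labelled effects passed for 48 genes, where 84.9% of all genes tested passed. The 2 labelled comparisons share no library. SK-N-SH control and second line knockdown, which come first and last in the plots, are called the outer groups below, and the remaining 2 the inner groups.

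**Figure D1:**
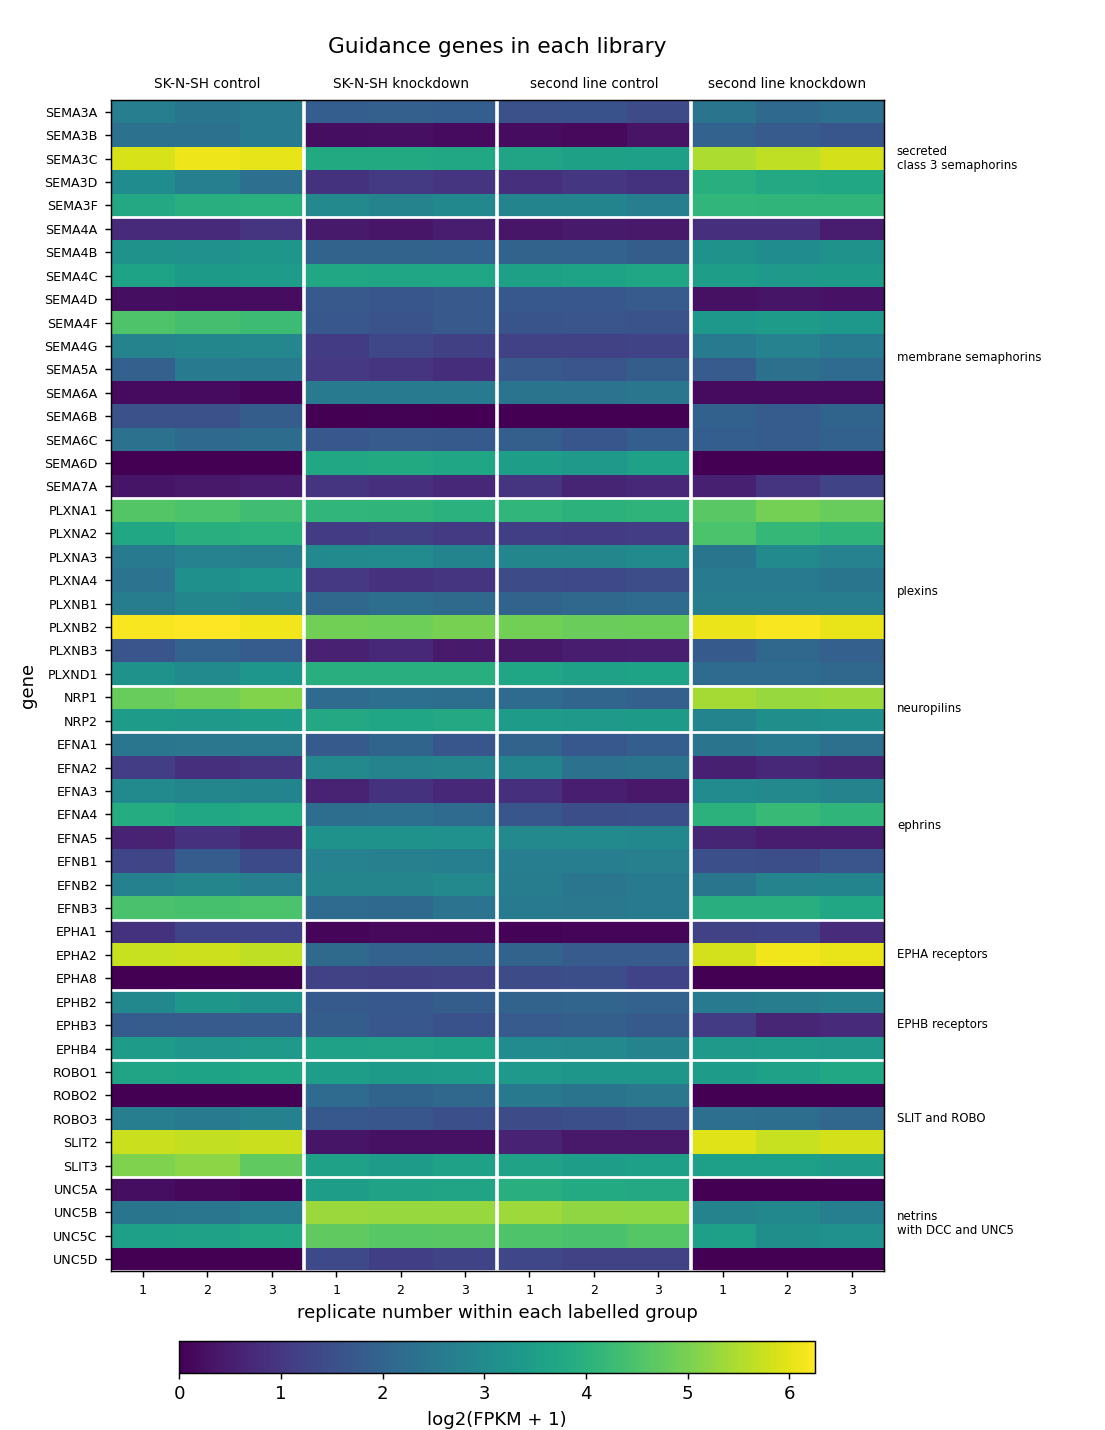
Level of each of the 50 guidance genes (rows, by family) in each of the 12 libraries (columns, 3 per labelled group), as log2(FPKM + 1). Most rows have one colour in the outer groups, SK-N-SH control and second line knockdown, and another in the inner groups, SK-N-SH knockdown and the second line control; in SLIT3, SK-N-SH control alone stands apart.

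The secreted class 3 semaphorins were high in SK-N-SH control and second line knockdown. All 5 members tested were lower in SK-N-SH knockdown than in its control, where 39% of all genes tested were lower. All 5 were higher in second line knockdown than in its control, where 39.9% of all genes were higher. SEMA3C, which steers sympathetic and cardiac neural crest cells (ENSG00000075223, chromosome 7, 80742538 to 80922359, minus strand, GRCh38, as for all coordinates below), was the most abundant of them, at 57.4, 67.1 and 64.3 FPKM in the SK-N-SH control, 12.8, 12.97 and 12.3 in SK-N-SH knockdown, 11.6, 10.8 and 10.6 in second line control and 43.5, 49.9 and 56.6 in second line knockdown. Its groups did not overlap between control and knockdown in either line. SEMA3C was 4.95-fold lower in SK-N-SH knockdown, a log2 fold of -2.22 (SE 0.09, adjusted p = 4.85e-10). SEMA3C was 4.54-fold higher in second line knockdown, a log2 fold of 2.08 (SE 0.09, adjusted p = 7.84e-10), both by limma.

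SEMA3B, a semaphorin studied as a tumour suppressor, was read at 4.12, 4.03 and 4.83 FPKM in the SK-N-SH control, 0.177, 0.199 and 0.144 in SK-N-SH knockdown, 0.152, 0.122 and 0.262 in second line control and 2.91, 2.45 and 2.19 in second line knockdown. The 6 libraries of SK-N-SH knockdown and the second line control were all under 0.3 FPKM and overlapped each other. The log2 fold was -2.18 (SE 0.09, adjusted p = 7.68e-10) in SK-N-SH, against 1.57 (SE 0.09, adjusted p = 1.24e-08) in the second line by limma. SEMA3D, which guides endothelial and neural crest cells, was read at 7.27, 5.53 and 3.91 FPKM in the SK-N-SH control, 0.887, 1.08 and 0.933 in SK-N-SH knockdown, 0.834, 1.002 and 0.883 in second line control and 14.4, 12.6 and 12.6 in second line knockdown. Its SK-N-SH control libraries were the most spread of the groups, and all lay below second line knockdown. Its log2 fold was -1.71 (SE 0.15, adjusted p = 5.10e-07) in SK-N-SH, against 2.89 (SE 0.15, adjusted p = 4.38e-09) in the second line by limma. SEMA3F, the main ligand of NRP2, had means of 13.9 ± 1.03 FPKM in SK-N-SH control, 6.41 ± 0.373 in SK-N-SH knockdown, 5.83 ± 0.415 in second line control and 16.1 ± 0.207 in second line knockdown. SEMA3A, the classical repellent of sympathetic axons that binds NRP1, had means of 4.93 ± 0.5102 FPKM in SK-N-SH control, 2.68 ± 0.0895 in SK-N-SH knockdown, 1.87 ± 0.114 in second line control and 3.85 ± 0.4501 in second line knockdown. SEMA3C held 68.5% of the class 3 total in SK-N-SH control and 54.97% in SK-N-SH knockdown, as a mean over the 3 libraries. In the second line it held 55.18% in control and 58.03% in knockdown, and the libraries of those groups overlapped. Of the remaining genes of the class, SEMA3E and SEMA3G did not reach the minimum, at 0.104 and 0.0961 FPKM over all libraries.

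The membrane semaphorins were divided. In SK-N-SH, 5 of 12 were higher with the knockdown label and 7 lower, where 40.7% and 39% of all genes tested were. In the second line 5 were higher, 4 lower and 3 did not pass, where 39.9% of all genes were higher and 40.2% lower. SEMA6D, a transmembrane ligand of A-type plexins (ENSG00000137872, chromosome 15, 47184101 to 47774223, plus strand), was read at 0, 0 and 0.00625 FPKM in the SK-N-SH control, 12.5, 12.99 and 11.97 in SK-N-SH knockdown, 10.2, 9.18 and 10.9 in second line control and 0, 0 and 0.01304 in second line knockdown. It was near absent from both low groups, with 1 read in all of SK-N-SH control and 2 in all of second line knockdown. The ratio of means was 5992 in SK-N-SH, with an exact 95% Poisson interval of 1075.5 to 236672. It was 2322 in the second line, with an interval of 643 to 19172. Both intervals cover only the counting error of the low group's reads. On the log scale the folds were 3.75 (SE 0.06, adjusted p = 2.89e-13) and -3.46 (SE 0.06, adjusted p = 5.30e-13) by limma.

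SEMA6A, which also binds A-type plexins and holds motor neuron bodies at the neural tube border, was read at 0.132, 0.1304 and 0.0781 FPKM in the SK-N-SH control, 5.08, 5.07 and 4.94 in SK-N-SH knockdown, 4.35, 4.17 and 4.52 in second line control and 0.142, 0.1296 and 0.143 in second line knockdown. Its low groups overlapped each other, and its high groups did not. Its log2 fold was 2.44 (SE 0.05, adjusted p = 2.98e-12) in SK-N-SH, 44.3-fold higher,, against -2.23 (SE 0.05, adjusted p = 5.65e-12) in the second line by limma. SEMA4D, the ligand of plexin-B1 in nerve and immune cells, had means of 0.158 ± 0.0142 FPKM in SK-N-SH control, 2.299 ± 0.105 in SK-N-SH knockdown, 2.35 ± 0.119 in second line control and 0.245 ± 0.0325 in second line knockdown. These gave a log2 fold of 1.51 (SE 0.06, adjusted p = 6.14e-10) in SK-N-SH, against -1.43 (SE 0.06, adjusted p = 9.19e-10) in the second line by limma.

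SEMA6B ran the other way, with 1.93, 1.92 and 2.57 FPKM in the SK-N-SH control, 0, 0.0261 and 0 FPKM in the SK-N-SH knockdown, 0 reads in all 3 of second line control and 2.86, 2.55 and 3.02 FPKM in the second line knockdown. Only 1 of the 6 libraries of SK-N-SH knockdown and the second line control held any read of it. It was at least 209.6-fold higher in second line knockdown than in its control, with 3 reads in the whole control group, or 0.0134 FPKM, as the floor. In SK-N-SH the ratio of control to knockdown means was 246 (exact 95% Poisson interval 68.2 to 2035), from 2 reads in the knockdown group. SEMA4F, a membrane semaphorin of neurons and glia, was read at 22.1, 20.3 and 18.7 FPKM in the SK-N-SH control, 2.22, 2.01 and 2.33 in SK-N-SH knockdown, 2.09, 2.14 and 2.03 in second line control and 9.08, 10.04 and 9.08 in second line knockdown. Second line knockdown lay between SK-N-SH control and the 2 low groups, with no overlap. The log2 fold was -2.74 (SE 0.07, adjusted p = 7.69e-12) in SK-N-SH, against 1.75 (SE 0.07, adjusted p = 3.30e-10) in the second line by limma. SEMA4G was read at 6.01, 6.36 and 6.46 FPKM in the SK-N-SH control, 1.18, 1.53 and 1.26 in SK-N-SH knockdown, 1.33, 1.304 and 1.44 in second line control and 4.94, 5.82 and 4.85 in second line knockdown. Log2 folds of SEMA4G were -1.65 in SK-N-SH and 1.40 in the second line. Of its exonic bases 27.4% are shared with MRPL43 and an antisense gene on the opposite strand, so its reads are uncertain where counting ignored strand.

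The other membrane semaphorins moved less. SEMA4B had means of 8.42 ± 0.508 FPKM in SK-N-SH control, 2.95 ± 0.0429 in SK-N-SH knockdown, 2.83 ± 0.1903 in second line control and 7.88 ± 0.564 in second line knockdown. SEMA4A, an immune and retinal semaphorin, had 0.764 ± 0.129 FPKM in SK-N-SH control, 0.348 ± 0.0467 in SK-N-SH knockdown, 0.338 ± 0.0389 in second line control and 0.649 ± 0.229 in second line knockdown. SEMA4C, a ligand of plexin-B2, differed little between groups, with means of 10.3 ± 0.929 FPKM in SK-N-SH control, 12.1 ± 0.1097 in SK-N-SH knockdown, 11.4 ± 0.658 in second line control and 9.77 ± 0.608 in second line knockdown. It still passed in both lines, with log2 folds of 0.22 (SE 0.07, adjusted p = 0.00982) and -0.20 (SE 0.07, adjusted p = 0.0131) by limma. SEMA5A, SEMA6C and SEMA7A passed in SK-N-SH and not in the second line, with log2 folds of -1.42 (SE 0.17, adjusted p = 1.12e-05), -0.46 (SE 0.07, adjusted p = 8.98e-05) and 0.42 (SE 0.16, adjusted p = 0.0311). Their second line values were 0.34 (SE 0.17, adjusted p = 0.0857), 0.06 (SE 0.07, adjusted p = 0.428) and 0.15 (SE 0.16, adjusted p = 0.406) by limma. The labelled effects themselves differed for SEMA5A (adjusted p = 2.80e-05) and SEMA6C (0.000434), whereas for SEMA7A the adjusted p of that difference was 0.281. SEMA7A, which is anchored by a lipid and binds plexin-C1 and integrins, was read at 0.453, 0.934 and 1.44 FPKM in second line knockdown, the widest spread of its 4 groups. PLXNC1, its receptor, is among the genes under the minimum and was read at 0.585 ± 0.0809 FPKM in SK-N-SH knockdown and 0.841 ± 0.0562 in second line control, against 0.06296 ± 0.0113 and 0.0712 ± 0.0325 in SK-N-SH control and second line knockdown. SEMA5B averaged 0.115 FPKM and was not tested.

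**Figure D2:**
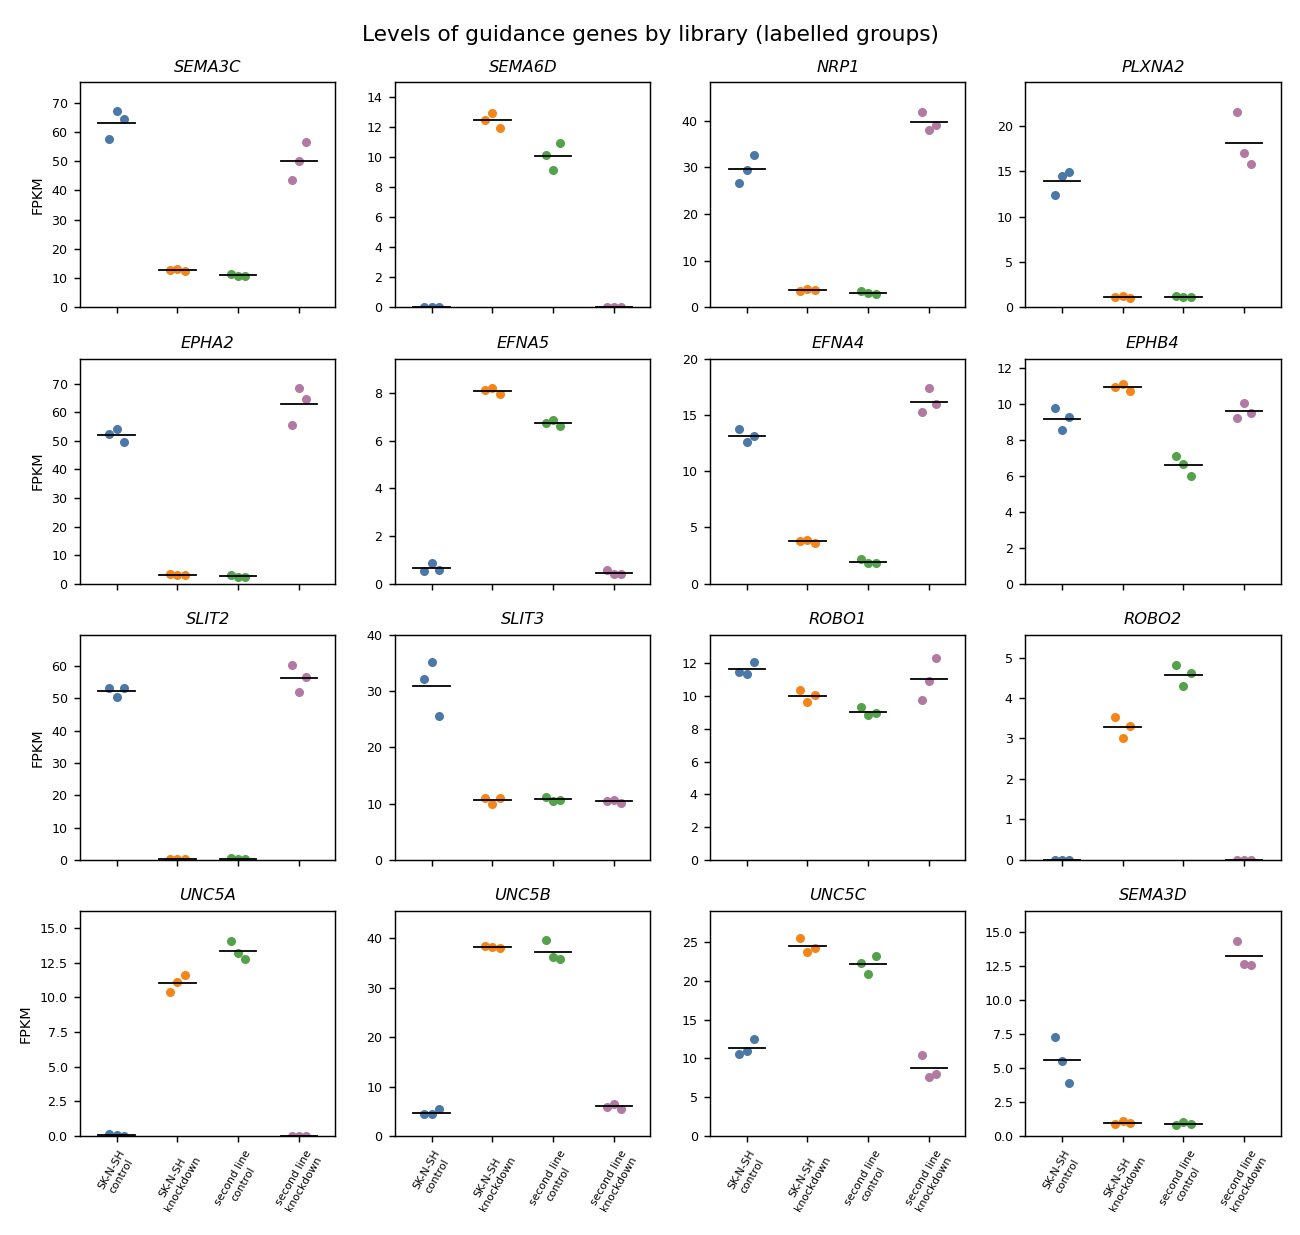
FPKM (vertical axis, linear from 0) of 16 guidance genes in every library, with the labelled groups along the horizontal axis. Each dot is 1 library and each bar the mean of 3. SEMA6D, ROBO2 and UNC5A lie at or near 0 in the outer groups, SLIT2 and EPHA2 in the inner groups, and EPHB4 is highest in SK-N-SH knockdown and lowest in second line control.

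Promoter windows were read for SEMA6D and 2 further genes because they are the members whose 250 bases before a RefSeq start site hold the E-box letters CACGTG, the core recognised by MYC-family proteins, which read the same on both strands. RefSeq (GRCh38.p14) had windows for 43 of the 50 genes, 65 windows in all, of which 3 held the E-box, as did 6.34% of 35116 windows of the same length from all genes. The E-box is in capitals below. It lies 22 bases before the start site in SEMA6D (chr15:47183839-47184088, plus strand), 143 in EPHA8 (chr1:22563239-22563488, plus strand) and 44 in SEMA4D (chr9:89495657-89495906, minus strand), where the SEMA4D start is 2474 bases inside the annotated gene. All 3 genes reached the minimum level only through the 2 MYCN-high groups, so their high level there adds no weight to a match. No binding was measured, and a match is a description only.
SEMA6D promoter: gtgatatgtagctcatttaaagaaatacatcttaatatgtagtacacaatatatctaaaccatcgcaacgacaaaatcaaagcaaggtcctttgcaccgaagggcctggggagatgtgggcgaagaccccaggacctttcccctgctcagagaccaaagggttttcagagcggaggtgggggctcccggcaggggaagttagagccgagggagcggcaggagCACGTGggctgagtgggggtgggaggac
EPHA8 promoter: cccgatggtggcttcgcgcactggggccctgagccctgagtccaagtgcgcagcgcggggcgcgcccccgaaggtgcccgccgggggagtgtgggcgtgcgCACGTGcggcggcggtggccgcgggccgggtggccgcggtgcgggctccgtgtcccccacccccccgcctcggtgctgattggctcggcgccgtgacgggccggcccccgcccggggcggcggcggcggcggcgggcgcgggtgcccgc
SEMA4D promoter: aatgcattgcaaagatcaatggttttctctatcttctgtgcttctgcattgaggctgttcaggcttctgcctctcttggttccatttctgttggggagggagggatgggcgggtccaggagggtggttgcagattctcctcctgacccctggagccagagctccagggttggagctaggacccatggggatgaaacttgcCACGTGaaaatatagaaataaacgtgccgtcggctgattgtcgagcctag

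The neuropilins, co-receptors of class 3 semaphorins and of VEGF, changed in opposite directions. NRP1 (ENSG00000099250, chromosome 10, 33177492 to 33336262, minus strand), the receptor of SEMA3A, was read at 26.7, 29.5 and 32.6 FPKM in the SK-N-SH control, 3.52, 3.85 and 3.81 in SK-N-SH knockdown, 3.53, 3.09 and 2.78 in second line control and 41.9, 37.97 and 39.1 in second line knockdown. It was 7.95-fold lower in SK-N-SH knockdown, a log2 fold of -2.69 (SE 0.08, adjusted p = 5.52e-11). NRP1 was 12.7-fold higher in second line knockdown, a log2 fold of 3.30 (SE 0.08, adjusted p = 8.39e-12), both by limma. NRP2, which binds SEMA3F, was read at 9.996, 9.35 and 10.4 FPKM in the SK-N-SH control, 12.8, 12.1 and 12.8 in SK-N-SH knockdown, 9.997, 9.44 and 9.61 in second line control and 6.102, 7.62 and 7.83 in second line knockdown. The control groups of the 2 lines overlapped for NRP2, SK-N-SH knockdown lay above every other library and second line knockdown lay below. The log2 folds were small, 0.31 (SE 0.08, adjusted p = 0.002603) and -0.39 (SE 0.08, adjusted p = 0.000536) by limma. The ratio of their levels thus differed between groups: NRP1 exceeded NRP2 in all 6 libraries of SK-N-SH control and second line knockdown, and NRP2 exceeded NRP1 in the other 6.

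Plexins, the signalling receptors of semaphorins, were mostly lower in SK-N-SH knockdown (6 of 8, with PLXND1 higher), where 39% of all genes tested were lower. They were mostly higher in second line knockdown (6 of 8, with PLXND1 lower), where 39.9% of all genes were higher. PLXNB2, a receptor of class 4 semaphorins, was the most abundant guidance gene in both outer groups, at means of 71.98 ± 3.54 FPKM in SK-N-SH control, 29.3 ± 0.915 in SK-N-SH knockdown, 28.2 ± 0.9097 in second line control and 67.8 ± 3.65 in second line knockdown. Its log2 fold was -1.27 (SE 0.05, adjusted p = 8.95e-10) in SK-N-SH, against 1.24 (SE 0.05, adjusted p = 1.01e-09) in the second line by limma. PLXNA2, a receptor of SEMA6A and, with neuropilins, of class 3 semaphorins (ENSG00000076356, chromosome 1, 208022242 to 208244320, minus strand), was read at 12.4, 14.5 and 14.9 FPKM in the SK-N-SH control, 1.17, 1.27 and 1.09 in SK-N-SH knockdown, 1.22, 1.13 and 1.196 in second line control and 21.5, 17.04 and 15.8 in second line knockdown. The low groups overlapped, and PLXNA2 was 11.8-fold lower in SK-N-SH knockdown, a log2 fold of -2.78 (SE 0.10, adjusted p = 2.53e-10). PLXNA2 was 15.3-fold higher in second line knockdown, a log2 fold of 3.12 (SE 0.10, adjusted p = 8.75e-11), both by limma.

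PLXNA4, which pairs with NRP1 in sympathetic and sensory neurons, was read at 4.19, 7.75 and 8.74 FPKM in the SK-N-SH control, 1.04, 0.867 and 0.942 in SK-N-SH knockdown, 1.75, 1.61 and 1.799 in second line control and 4.86, 4.995 and 4.41 in second line knockdown. The first SK-N-SH control library lay below its group and below every second line knockdown library. The log2 fold was -1.97 (SE 0.18, adjusted p = 8.83e-07) in SK-N-SH, against 1.08 (SE 0.18, adjusted p = 0.000151) in the second line by limma. PLXNB3, a receptor of SEMA5A, was read at 2.13, 2.92 and 2.504 FPKM in the SK-N-SH control, 0.494, 0.648 and 0.373 in SK-N-SH knockdown, 0.317, 0.426 and 0.448 in second line control and 2.42, 3.29 and 2.81 in second line knockdown. Log2 folds of PLXNB3 were -1.22 in SK-N-SH and 1.45 in the second line. It shares 20.4% of its exonic bases with SRPK3 on the same strand, so its reads are uncertain. PLXND1, the receptor of SEMA3E in blood vessels, was read at 8.24, 7.01 and 8.802 FPKM in the SK-N-SH control, 14.5, 14.2 and 14.3 in SK-N-SH knockdown, 11.8, 11.1 and 11.3 in second line control and 3.56, 3.52 and 3.34 in second line knockdown. Its 4 groups did not overlap, and the log2 fold was 0.77 (SE 0.07, adjusted p = 4.84e-07) in SK-N-SH, against -1.47 (SE 0.07, adjusted p = 1.52e-09) in the second line by limma. PLXNB1, the receptor of SEMA4D, had means of 5.73 ± 0.511 FPKM in SK-N-SH control, 3.55 ± 0.233 in SK-N-SH knockdown, 3.28 ± 0.287 in second line control and 5.31 ± 0.0178 in second line knockdown. PLXNA1 had means of 21.1 ± 1.93 FPKM in SK-N-SH control, 15.8 ± 0.737 in SK-N-SH knockdown, 15.8 ± 0.498 in second line control and 26.9 ± 2.78 in second line knockdown. PLXNA3 had means of 5.48 ± 0.411 FPKM in SK-N-SH control, 6.704 ± 0.524 in SK-N-SH knockdown, 6.56 ± 0.356 in second line control and 5.69 ± 1.197 in second line knockdown. It passed in neither line (adjusted p = 0.0609 and 0.139 by limma).

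Ephrins, the membrane-bound ligands, were divided in the same way. In SK-N-SH knockdown 3 of 8 were higher and 4 lower, where 40.7% and 39% of all genes tested were. In second line knockdown 4 were higher and 3 lower, where 39.9% and 40.2% of all genes were. EFNA5, a repellent ligand of topographic maps (ENSG00000184349, chromosome 5, 107376889 to 107670895, minus strand), was read at 0.546, 0.853 and 0.582 FPKM in the SK-N-SH control, 8.14, 8.19 and 7.95 in SK-N-SH knockdown, 6.73, 6.88 and 6.62 in second line control and 0.574, 0.384 and 0.411 in second line knockdown. It was 12.3-fold higher in SK-N-SH knockdown, a log2 fold of 2.46 (SE 0.07, adjusted p = 5.66e-11). EFNA5 was 14.8-fold lower in second line knockdown, a log2 fold of -2.41 (SE 0.07, adjusted p = 5.81e-11), both by limma. EFNA2 was read at 1.19, 0.7803 and 0.958 FPKM in the SK-N-SH control, 6.76, 5.94 and 6.24 in SK-N-SH knockdown, 6.102, 4.13 and 4.32 in second line control and 0.468, 0.624 and 0.529 in second line knockdown. Log2 folds of EFNA2 were 1.89 in SK-N-SH and -1.91 in the second line. EFNB1, a transmembrane ligand that also signals backward into its own cell, had means of 1.87 ± 0.556 FPKM in SK-N-SH control, 5.63 ± 0.1896 in SK-N-SH knockdown, 5.47 ± 0.168 in second line control and 1.96 ± 0.159 in second line knockdown. Those 3 ephrins were high in the MYCN-high groups.

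EFNB3, a ligand of the nervous system midline, was read at 20.98, 20.5 and 21.5 FPKM in the SK-N-SH control, 3.56, 3.37 and 4.23 in SK-N-SH knockdown, 5.01, 4.71 and 4.91 in second line control and 14.3, 14.5 and 12.6 in second line knockdown. Its 4 groups did not overlap, and its log2 fold was -2.22 (SE 0.07, adjusted p = 9.30e-11) in SK-N-SH, against 1.33 (SE 0.07, adjusted p = 7.37e-09) in the second line by limma. EFNA4 was read at 13.8, 12.6 and 13.2 FPKM in the SK-N-SH control, 3.82, 3.87 and 3.58 in SK-N-SH knockdown, 2.18, 1.85 and 1.86 in second line control and 15.2, 17.4 and 15.9 in second line knockdown. No 2 of these groups overlapped either. Its log2 fold was -1.57 (SE 0.06, adjusted p = 5.87e-10) in SK-N-SH, against 2.54 (SE 0.06, adjusted p = 8.71e-12) in the second line by limma. EFNA3 was read at 6.83, 6.26 and 6.11 FPKM in the SK-N-SH control, 0.535, 0.903 and 0.634 in SK-N-SH knockdown, 0.827, 0.4295 and 0.348 in second line control and 7.12, 6.63 and 5.99 in second line knockdown. EFNA3 had log2 folds of -2.13 and 2.31 in these lines. EFNA3 and EFNA4 lie side by side on chromosome 1 and share 44.7% and 14.96% of their exonic bases with the readthrough gene AL691442.1 on the same strand, so their reads are uncertain. EFNA1, the main ligand of EPHA2, had means of 4.59 ± 0.103 FPKM in SK-N-SH control, 2.55 ± 0.468 in SK-N-SH knockdown, 2.64 ± 0.345 in second line control and 4.41 ± 0.543 in second line knockdown. EFNB2, the arterial ephrin that binds EPHB4, had means of 5.76 ± 0.412 FPKM in SK-N-SH control, 6.38 ± 0.325 in SK-N-SH knockdown, 4.89 ± 0.3902 in second line control and 5.47 ± 0.926 in second line knockdown. EFNB2 passed in neither line (adjusted p = 0.249 and 0.254 by limma). Of its exonic bases 26.2% are shared with an antisense gene.

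Of the EPHA receptors, 3 of 9 reached the minimum, and the other 6 averaged from 0.000693 FPKM (EPHA3, a single read in all libraries) to 0.226 FPKM (EPHA4). EPHA2, a receptor often raised in carcinoma cells (ENSG00000142627, chromosome 1, 16124337 to 16156087, minus strand), was read at 52.3, 54.1 and 49.4 FPKM in the SK-N-SH control, 3.495, 2.93 and 2.96 in SK-N-SH knockdown, 2.97, 2.45 and 2.48 in second line control and 55.5, 68.3 and 64.7 in second line knockdown. It was 16.6-fold lower in SK-N-SH knockdown, a log2 fold of -3.68 (SE 0.09, adjusted p = 6.05e-12). EPHA2 was 23.9-fold higher in second line knockdown, a log2 fold of 4.13 (SE 0.09, adjusted p = 2.16e-12), both by limma. EPHA1 was read at 0.873, 1.397 and 1.38 FPKM in the SK-N-SH control, 0.05999, 0.121 and 0.0942 in SK-N-SH knockdown, 0.0494, 0.0866 and 0.0765 in second line control and 1.35, 1.38 and 0.731 in second line knockdown. EPHA1 had log2 folds of -1.01 and 0.99 in these lines. EPHA8, a receptor of midbrain neurons, ran the other way, with 0.01001, 0.00987 and 0.01997 FPKM in the SK-N-SH control, 1.304, 1.28 and 1.33 FPKM in the SK-N-SH knockdown, 1.72, 1.84 and 1.37 FPKM in the second line control and 0 reads in all 3 of second line knockdown. Its SK-N-SH control group held 4 reads in all. It was 98.2-fold higher in SK-N-SH knockdown, a log2 fold of 1.19 (SE 0.08, adjusted p = 4.70e-08) by limma, and at least 155-fold lower in second line knockdown by a floor of 3 reads over the group, or 0.0106 FPKM.

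The EPHA2 promoter window (chr1:16156070-16156319, minus strand, RefSeq on GRCh38.p14) is shown because it is the most abundant member whose window holds the TEAD letters GGAATG or their reverse complement CATTCC, in capitals below, 67 bases before the start site. Those letters are the core of the site bound by the TEAD partners of YAP. They occurred in 7 of the 65 member windows, from SEMA3B, SEMA3F, SEMA4A, PLXNB1, PLXNB3 and EPHA2, and in 11.9% of all 35116 windows. The AP-1 letters TGANTCA, which read the same on both strands, occurred in 0 member windows and in 6.57% of all windows. No binding to any of these letters was measured, and a match is a description only.
EPHA2 promoter: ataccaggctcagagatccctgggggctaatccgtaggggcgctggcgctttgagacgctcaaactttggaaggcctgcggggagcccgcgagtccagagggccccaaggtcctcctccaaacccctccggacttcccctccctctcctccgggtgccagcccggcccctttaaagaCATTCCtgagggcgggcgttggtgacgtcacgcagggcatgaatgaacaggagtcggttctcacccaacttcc

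Of the EPHB receptors, 3 of 5 reached the minimum, and EPHB1 and EPHB6 averaged 0.119 and 0.0188 FPKM. All 3 had smaller absolute log2 folds than EPHA2 in both lines. EPHB2, a receptor of ephrin-Bs in axon pathfinding, was read at 6.52, 8.86 and 7.83 FPKM in the SK-N-SH control, 2.43, 2.31 and 2.61 in SK-N-SH knockdown, 3.005, 3.09 and 2.89 in second line control and 4.91, 5.32 and 5.68 in second line knockdown. Its 4 groups did not overlap, and its log2 fold was -1.33 (SE 0.09, adjusted p = 4.80e-08) in SK-N-SH, against 0.66 (SE 0.09, adjusted p = 2.53e-05) in the second line by limma. EPHB3 was read at 2.56, 2.47 and 2.54 FPKM in the SK-N-SH control, 2.59, 2.27 and 1.996 in SK-N-SH knockdown, 2.47, 2.71 and 2.397 in second line control and 1.15, 0.588 and 0.714 in second line knockdown. Second line knockdown alone was low for EPHB3. The log2 fold was -0.10 (SE 0.10, adjusted p = 0.377) in SK-N-SH, against -0.97 (SE 0.10, adjusted p = 4.18e-06) in the second line, and that between the labelled effects was -0.86 (SE 0.15, adjusted p = 0.000178), all by limma. EPHB4, the venous receptor of EFNB2, was read at 9.78, 8.52 and 9.24 FPKM in the SK-N-SH control, 10.9, 11.1 and 10.7 in SK-N-SH knockdown, 7.09, 6.66 and 6.003 in second line control and 9.23, 10.04 and 9.502 in second line knockdown. It was higher with the knockdown label in 3 of 3 libraries in both lines, 1.19-fold in SK-N-SH, a log2 fold of 0.23 (SE 0.06, adjusted p = 0.00549), and 1.46-fold in the second line, a log2 fold of 0.48 (SE 0.06, adjusted p = 1.97e-05), by limma.

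**Figure D3:**
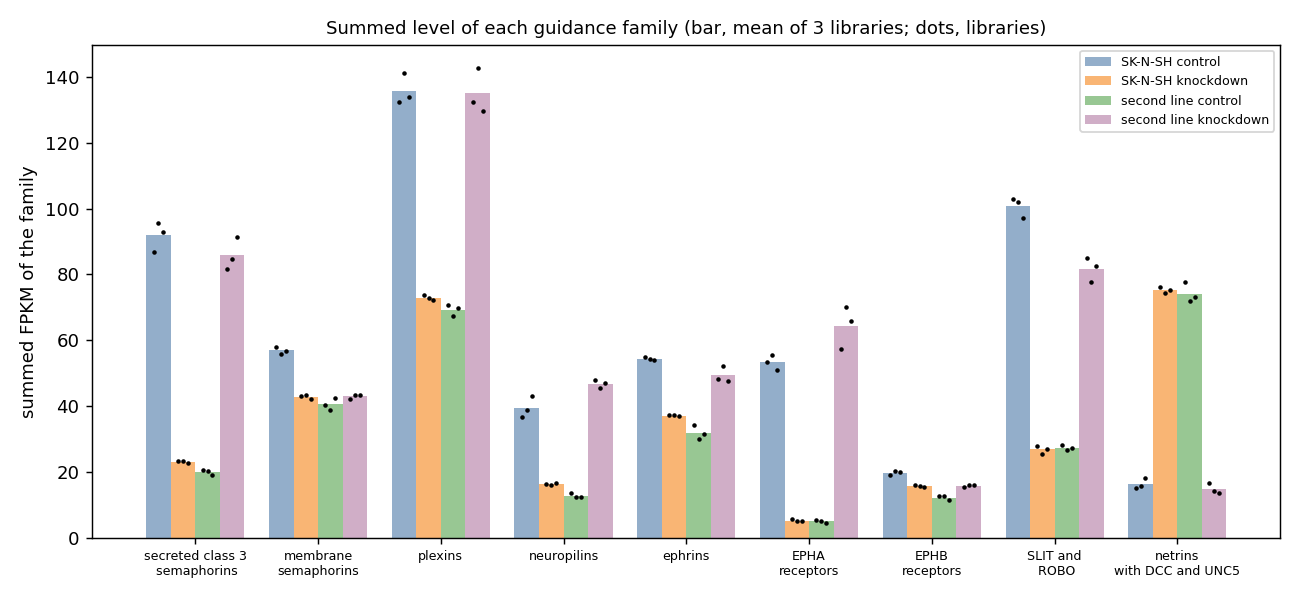
Summed FPKM of each guidance family (all genes that match by name, low ones included) in the 4 labelled groups: bars are means of 3 libraries and dots the libraries. The EPHA receptor sum is 53.3 and 64.5 FPKM in SK-N-SH control and second line knockdown and 5.22 and 4.995 in the other groups, and the sum of netrins with DCC and UNC5 runs the other way.

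Slits and their ROBO receptors differed within the family. SLIT2, a repellent of axons and migrating cells (ENSG00000145147, chromosome 4, 20253260 to 20620561, plus strand), was read at 53.3, 50.3 and 53.2 FPKM in the SK-N-SH control, 0.281, 0.219 and 0.216 in SK-N-SH knockdown, 0.536, 0.356 and 0.348 in second line control and 60.4, 51.99 and 56.8 in second line knockdown. The 6 high libraries all exceeded 50 FPKM and the 6 low ones were all under 0.6. It was 219-fold lower in SK-N-SH knockdown, a log2 fold of -5.43 (SE 0.07, adjusted p = 3.31e-14). SLIT2 was 136-fold higher in second line knockdown, a log2 fold of 5.34 (SE 0.07, adjusted p = 3.13e-14), both by limma. On the scale of log2(FPKM + 1) these were the largest absolute log2 folds of the 50 genes in either comparison. Ratios of means against groups with few or no reads, or their lower bounds, were larger for SEMA6B, SEMA6D, EPHA8, ROBO2, UNC5A and UNC5D. For EPHA8 and UNC5A this held in the second line alone. SLIT3 (ENSG00000184347, chromosome 5, 168661733 to 169301129, minus strand) was read at 32.1, 35.1 and 25.5 FPKM in the SK-N-SH control, 10.99, 9.98 and 11.1 in SK-N-SH knockdown, 11.2, 10.5 and 10.6 in second line control and 10.5, 10.6 and 10.05 in second line knockdown. It was high in SK-N-SH control alone, and the other 3 groups overlapped. The log2 fold was -1.44 (SE 0.09, adjusted p = 4.21e-08) in SK-N-SH, -0.05 (SE 0.09, adjusted p = 0.657) in the second line and 1.39 (SE 0.13, adjusted p = 9.21e-07) for the difference between the labelled effects, by limma.

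ROBO2, a neuronal slit receptor (ENSG00000185008, chromosome 3, 75906695 to 77649964, plus strand), ran opposite to SLIT2, at 0.00322, 0 and 0.00642 FPKM in the SK-N-SH control, 3.54, 3.01 and 3.31 in SK-N-SH knockdown, 4.82, 4.302 and 4.61 in second line control and 0, 0.00355 and 0 in second line knockdown. It had 3 reads in all of SK-N-SH control and 1 in all of second line knockdown. The ratio of means was 1023 in SK-N-SH, with an exact 95% Poisson interval of 350.04 to 4960.4, and 3867 in the second line, with an interval of 694 to 152727. The log2 fold was 2.09 (SE 0.06, adjusted p = 6.18e-11) in SK-N-SH, against -2.48 (SE 0.06, adjusted p = 1.30e-11) in the second line by limma. ROBO1, a receptor found in many tissues, was read at 11.5, 11.3 and 12.1 FPKM in the SK-N-SH control, 10.4, 9.65 and 10.1 in SK-N-SH knockdown, 9.305, 8.86 and 8.99 in second line control and 9.79, 10.9 and 12.3 in second line knockdown. Its levels lay close together in all 12 libraries, with log2 folds of -0.20 (SE 0.07, adjusted p = 0.0185) and 0.25 (SE 0.07, adjusted p = 0.004702) by limma. ROBO3, which makes commissural axons insensitive to slits before they cross, was read at 5.35, 4.91 and 5.71 FPKM in the SK-N-SH control, 2.31, 2.22 and 1.904 in SK-N-SH knockdown, 1.76, 1.88 and 2.04 in second line control and 3.85, 3.76 and 3.22 in second line knockdown. ROBO3 had log2 folds of -1.01 and 0.67 in these lines. SLIT1 and ROBO4, the ROBO of endothelial cells, averaged 0.303 and 0.213 FPKM and were not tested. ROBO4 had means of 0.461 ± 0.105 and 0.364 ± 0.07396 FPKM in the outer groups, SK-N-SH control first, and of 0.0142 ± 0.00536 and 0.0114 ± 0.0131 in the inner groups, SK-N-SH knockdown first. SLIT1 had 0.0215 ± 0.00353 and 0.00203 ± 0.00352 FPKM in the outer groups and 0.471 ± 0.0276 and 0.717 ± 0.0565 in the inner groups.

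SLIT2 and SLIT3 each hold a copy of the microRNA miR-218 within the gene on the same strand, and its sequences are shown because both host genes are slits and their receptors ROBO1 and ROBO2 hold matches to its seed. The 5p arm is identical from both copies (chr4:20528299-20528319, plus strand, in SLIT2, and chr5:168768211-168768231, minus strand, in SLIT3), whereas the 3p arms differ (chr4:20528342-20528363 and chr5:168768168-168768189). Capitals mark the seed, bases 2 to 8, in these RefSeq sequences (GRCh38.p14).
hsa-miR-218-5p: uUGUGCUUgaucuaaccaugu
hsa-miR-218-1-3p: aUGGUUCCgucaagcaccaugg
hsa-miR-218-2-3p: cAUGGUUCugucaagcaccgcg

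The letters AAGCACA, which pair with the seed of miR-218-5p, occurred in the 3′ UTR of 13.8% of 19102 protein-coding genes, and in those of 15 of the 50 guidance genes (30%), whose UTRs are longer, with a median of 1737 bases against 1085. ROBO1 and ROBO2 were among them, as were the hosts SLIT2 and SLIT3 and genes of other families, such as EPHB2 with 3 matches. Below are the match at bases 971 to 977 of the ROBO1 UTR and those at bases 456 to 462 and 2901 to 2907 of the ROBO2 UTR, counted from the first base of the UTR, with the pairing letters in capitals. The level of the microRNA was not analysed here, and a match does not show binding.
ROBO1 site: ttttttggttttaaAAGCACAa
ROBO2 first site: ttttatttggtgatAAGCACAa
ROBO2 second site: atcatgtccaatacAAGCACAg

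The UNC5 receptors, which turn netrin into a repellent and are known as dependence receptors that signal death without ligand, were all high in SK-N-SH knockdown and the second line control. All 4 were higher with the knockdown label in SK-N-SH, where 40.7% of all genes tested were higher. All 4 were lower with it in the second line, where 40.2% of all genes were lower. UNC5B (ENSG00000107731, chromosome 10, 71212570 to 71302864, plus strand) was read at 4.39, 4.49 and 5.404 FPKM in the SK-N-SH control, 38.5, 38.2 and 37.97 in SK-N-SH knockdown, 39.6, 36.3 and 35.8 in second line control and 5.95, 6.57 and 5.497 in second line knockdown. It was the most abundant guidance gene in both of those groups, 8.02-fold higher in SK-N-SH knockdown, a log2 fold of 2.77 (SE 0.07, adjusted p = 2.11e-11). UNC5B was 6.199-fold lower in second line knockdown, a log2 fold of -2.45 (SE 0.07, adjusted p = 5.39e-11), both by limma. UNC5A (ENSG00000113763, chromosome 5, 176810477 to 176880898, plus strand) was read at 0.172, 0.0971 and 0.0368 FPKM in the SK-N-SH control, 10.4, 11.1 and 11.6 in SK-N-SH knockdown, 14.05, 13.2 and 12.7 in second line control and 0.0127, 0 and 0 in second line knockdown. UNC5A was 108-fold higher in SK-N-SH knockdown, a log2 fold of 3.45 (SE 0.06, adjusted p = 6.82e-13) by limma. In the second line the ratio of control to knockdown means was 3140 (exact 95% Poisson interval 563 to 124006), from 1 read in the knockdown group.

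UNC5C, a receptor in spinal motor and cerebellar axons, was read at 10.6, 11.01 and 12.5 FPKM in the SK-N-SH control, 25.5, 23.7 and 24.2 in SK-N-SH knockdown, 22.3, 20.9 and 23.2 in second line control and 10.5, 7.67 and 8.03 in second line knockdown. Its log2 fold was 1.04 (SE 0.10, adjusted p = 1.21e-06) in SK-N-SH, against -1.26 (SE 0.10, adjusted p = 2.13e-07) in the second line by limma. UNC5D was read at 0.00496, 0.00489 and 0 FPKM in the SK-N-SH control, 1.62, 1.22 and 1.43 FPKM in the SK-N-SH knockdown, 1.54, 1.36 and 1.33 FPKM in the second line control and 0 reads in all 3 of second line knockdown. Its ratio of means was 434 in SK-N-SH (exact 95% Poisson interval 120.2 to 3584, from 2 reads). It was at least 269-fold lower in second line knockdown by the floor of 3 reads over the group, or 0.00525 FPKM. The netrin ligands were low: NTN1 averaged 0.0414 and NTN4 0.0138 FPKM over the 12 libraries, and DCC, the attractive netrin receptor, 0.00334 FPKM. None of the 3 was tested.

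The groups that resembled each other across the line labels were compared as well. Between SK-N-SH knockdown and the second line control 10 of the 50 guidance genes passed, 6 higher in SK-N-SH knockdown and 4 lower, where 5.39% of all genes tested passed, 2.26% higher and 3.12% lower. An absolute log2 fold of 1 or more was reached by 0 of them, where 0.0946% of all genes reached it. The scale of log2(FPKM + 1) understates the change of low genes, such as SEMA5A below. MYCN averaged 1028 and 1040.4 FPKM in these groups, and 3 of 10 noradrenergic and 0 of 9 mesenchymal markers passed. EFNA4, read at 3.82, 3.87 and 3.58 FPKM against 2.18, 1.85 and 1.86, had a log2 fold of 0.68 (SE 0.06, adjusted p = 0.000153), and EPHB4, at 10.9, 11.1 and 10.7 against 7.09, 6.66 and 6.003, one of 0.65 (SE 0.06, adjusted p = 0.000197) by limma. These 2 passed under every alternative run. SEMA3A, NRP2, PLXND1 and SEMA6D were higher as well, with log2 folds of 0.36, 0.34, 0.31 and 0.28. SEMA5A (-0.81), ROBO2 (-0.38), EFNB3 (-0.32) and UNC5A (-0.25) were lower. SEMA5A was read at 1.07, 0.927 and 0.769 FPKM in SK-N-SH knockdown and at 2.38, 2.14 and 2.59 in second line control. The count fell whichever library of these 2 groups was left out. It was 4, 3 and 6 without SK-N-SH knockdown replicates 1, 2 and 3. Without second line control replicates 1, 2 and 3 it was 5, 4 and 4. Of 12 fits that each left out 1 library, SEMA3A and NRP2 lost their call in 6, PLXND1 and EFNB3 in 5, SEMA5A and SEMA6D in 4, UNC5A in 7 and ROBO2 in 0. Under 10 other settings UNC5A lost it in 5, with an adjusted p of up to 0.546, SEMA6D in 3 and EFNB3 in 2. ROBO2, with an adjusted p of 0.00584, lost it with a pseudocount of 0.1, at 0.0838, by limma.

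Between second line knockdown and the SK-N-SH control 25 guidance genes passed, 10 higher in second line knockdown and 15 lower, where 44.1% of all genes tested passed, 26.9% higher and 17.2% lower. After rescaling to the total of reads 22 passed, 5 higher and 17 lower, and the split of all genes turned from 4261 higher and 2735 lower to 3077 higher and 3661 lower. Of the markers tested, 8 of 10 noradrenergic and 7 of 9 mesenchymal genes passed here, in both directions. At an absolute log2 fold of at least 1, where 2.49% of all genes passed, 1.26% higher and 1.23% lower, SEMA3D was higher and SLIT3, SEMA4F and PLXND1 were lower. Low genes, such as EPHB3 below, can miss that cut because the scale of log2(FPKM + 1) understates their change. SEMA3D stood at 14.4, 12.6 and 12.6 FPKM against 7.27, 5.53 and 3.91, a log2 fold of 1.14 (SE 0.15, adjusted p = 0.000128) by limma. SLIT3 stood at 10.5, 10.6 and 10.05 against 32.1, 35.1 and 25.5, one of -1.48 (SE 0.09, adjusted p = 1.69e-06), SEMA4F had -1.03 (SE 0.07, adjusted p = 1.75e-06) and PLXND1 -1.01 (SE 0.07, adjusted p = 2.01e-06). EPHB3 (-0.97), SEMA3B (-0.60), EFNB3 (-0.58), EPHB2 (-0.46), ROBO3 (-0.46), NRP2 (-0.42) and SEMA6C (-0.35) were lower and NRP1 (0.41), PLXNA1 (0.33) and EFNA4 (0.28) higher. Those 14 genes passed under every alternative run. The other 11 lost their call under at least 1 alternative, among them SEMA7A (0.51) and PLXNA2 (0.35), which both missed the threshold without SK-N-SH control replicate 1, at log2 folds of 0.48 and 0.27.

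**Figure D4:**
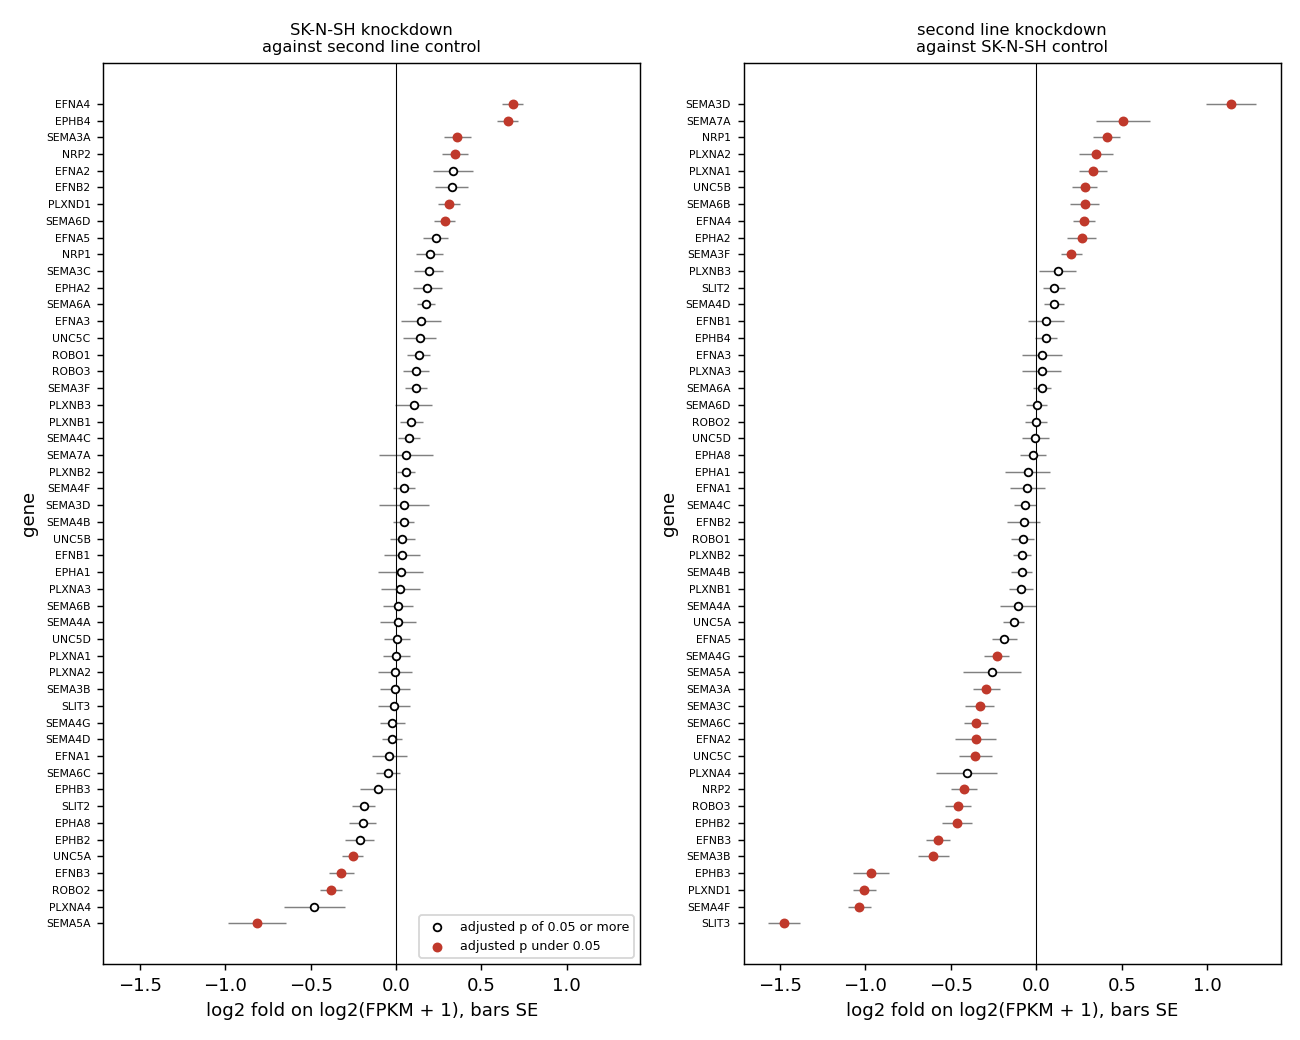
Log2 fold on log2(FPKM + 1) with its SE for the 50 guidance genes, each panel in its own order: SK-N-SH knockdown against the second line control (left) and second line knockdown against the SK-N-SH control (right). Filled points have a limma adjusted p under 0.05, 10 at left and 25 at right, and SLIT3 at right has the lowest value, -1.48.

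Between the control groups of the 2 lines, 13 guidance genes were higher in the second line and 31 lower, where 79.6% of all genes passed, 40.7% higher and 38.9% lower. This comparison shares its libraries with those above, so its values only restate the levels given.

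Genes for proteins that act with or below these receptors also moved in both directions. Of 44 tested genes for guidance signalling, from a list of 53, 19 were higher and 20 lower in SK-N-SH knockdown, and 23 were higher and 18 lower in second line knockdown, where 79.8% and 80% of all genes passed. The list's median log2 fold was -0.06 and 0.19, beside 0.02 and -0.02 over all genes. The collapsin response mediators DPYSL5 and CRMP1, which carry semaphorin signals to microtubules, stood at means of 35.8 and 73.6 FPKM in SK-N-SH knockdown against 0.105 and 2.48 in control, log2 folds of 5.05 (SE 0.06, adjusted p = 3.20e-14) and 4.42 (SE 0.06, adjusted p = 8.54e-14) by limma. In second line knockdown they stood at 0.00523 and 2.17 FPKM against 50.9 and 82.6. LIMK1, the kinase of cofilin, and VASP, an actin elongation factor, were 6.55-fold and 4.89-fold lower in SK-N-SH knockdown, log2 folds of -2.42 (SE 0.08, adjusted p = 9.91e-11) and -2.05 (SE 0.07, adjusted p = 2.21e-10) by limma. In second line knockdown they were 8.99-fold and 6.99-fold higher, log2 folds of 2.85 (SE 0.08, adjusted p = 2.20e-11) and 2.54 (SE 0.07, adjusted p = 3.24e-11).

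Of 28 tested co-receptors and other guidance molecules, from a list of 39, 14 were higher and 11 lower in SK-N-SH knockdown, and 9 were higher and 15 lower in second line knockdown, where again 79.8% and 80% of all genes passed. The list's median log2 fold was 0.25 and -0.36, beside 0.02 and -0.02 over all genes. The adhesion molecules CNTN1 and NRCAM, the second a partner of NRP2 in semaphorin receptors, stood at 27.05 and 23.4 FPKM in SK-N-SH knockdown against 0.0735 and 0.137 in control, log2 folds of 4.71 (SE 0.05, adjusted p = 1.22e-14) and 4.42 (SE 0.04, adjusted p = 7.43e-15) by limma. In the second line CNTN1 and NRCAM stood at 0.00263 and 0.0186 FPKM in knockdown against 35.8 and 28.4 in control. MET, the receptor kinase that pairs with B-type plexins, stood at 0.0135 FPKM in SK-N-SH knockdown against 29.6 in control, a log2 fold of -4.91 (SE 0.06, adjusted p = 3.31e-14) by limma, and at 35.4 in second line knockdown against 0.00277 in control. DAG1, which encodes dystroglycan, a matrix receptor that also binds slits, was 5.68-fold lower in SK-N-SH knockdown, a log2 fold of -2.37 (SE 0.07, adjusted p = 7.63e-11), and 8.08-fold higher in second line knockdown, one of 2.88 (SE 0.07, adjusted p = 1.28e-11), by limma.

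Scaling affects the second line most. The FPKM denominators followed a size factor, the median over genes of the ratio to the average library, and not the total of reads. Relative to that total they ran from 0.912 of their mean (second line knockdown replicate 2) to 1.06 (SK-N-SH knockdown replicate 1). When levels were rescaled to the total of reads in each library, the median log2 fold of all genes in second line knockdown against control moved by -0.12, from -0.02 to -0.14, and that of the 50 guidance genes moved from 0.52 to 0.39. In SK-N-SH the median of all genes moved by 0.04.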

How the data were processed

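RNA from 12 cell line libraries was sequenced. The authors deposited 1 table of FPKM per gene; reads were aligned with HISAT2 2.0.5 and counted with featureCounts 1.5.0-p3, per the submitters' processing notes. Those notes name the mouse build mm10, but the genes are human and all 58735 starts and ends equal those of GENCODE 29 on GRCh38. The sources used here do not state strand handling. FPKM steps gave whole reads for all genes (100% whole within 0.05 reads), used for depth, 0 reads, floors and intervals. The intervals cover only the counting error of the low group's reads, with the mean of the high group taken as fixed. Each column matched 1 sample, with 0 columns of no sample.

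Genes with a mean of at least 0.5 FPKM (15856) were tested with limma 3.58.1 in R 4.3.3 on log2(FPKM + 1), all 4 groups in 1 fit with an intensity trend, and p-values were Benjamini-Hochberg adjusted over all genes. The script was tested on simulated data. The members and lists were chosen with earlier results of these data known. Of the 2 partner lists, 53 of 53 and 38 of 39 symbols were in the table. Values in every library are given for up to 2 members per family and direction in each labelled comparison. These had the largest non-overlapping log2 folds that passed. Members that passed in the same direction in both lines were added, as were up to 5 per direction in each comparison across the line labels. Of the latter, SEMA3A and PLXNA1 are given as group means, and SEMA5A and SEMA7A by library in some groups only. Further members printed in full were chosen after their values were seen. Up to 2 genes per direction of each partner list were named. Alternatives were other pseudocounts, minimum levels, gene types and scaling, no trend, only the groups compared, a replicate block, leaving out each library and, chosen after seeing the data, limma voom on the recovered reads.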

Additional observations from a re-analysis of the deposited data

Results flagged for a closer look

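For 48 of the 50 guidance genes the labelled knockdown effect differed between the lines by limma's test of the difference itself. Over all genes tested 84.9% passed that test, and TSPYL5 itself was higher with the knockdown label in SK-N-SH. Values are log2 differences, the effect in the second line minus that in SK-N-SH. Among the class 3 semaphorins the differences were 1.44 for SEMA3A, 3.75 for SEMA3B, 4.30 for SEMA3C, 4.603 for SEMA3D and 2.33 for SEMA3F. Among the membrane semaphorins they were positive for SEMA4A (0.68), SEMA4B (2.47), SEMA4F (4.49), SEMA4G (3.04), SEMA5A (1.76), SEMA6B (3.56) and SEMA6C (0.53). They were negative for SEMA4C (-0.42), SEMA4D (-2.94), SEMA6A (-4.67) and SEMA6D (-7.21).

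Plexins with positive differences were PLXNA1 (1.12), PLXNA2 (5.90), PLXNA4 (3.05), PLXNB1 (1.13), PLXNB2 (2.504) and PLXNB3 (2.68), and those with negative ones were PLXNA3 (-0.44) and PLXND1 (-2.24). NRP1 had 5.99 and NRP2 had -0.70. Ephrins divided into EFNA1 (1.23), EFNA3 (4.45), EFNA4 (4.11) and EFNB3 (3.55) above 0, and EFNA2 (-3.80), EFNA5 (-4.87) and EFNB1 (-2.36) below 0. EPH receptors stood at 2.004 for EPHA1, 7.82 for EPHA2, -2.58 for EPHA8, 1.99 for EPHB2, -0.86 for EPHB3 and 0.25 for EPHB4. EPHB4 is the gene that was higher with the knockdown label in both lines, so its difference is one of size and not of direction.

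Slits and ROBO receptors stood at 10.77 for SLIT2, 1.39 for SLIT3, 0.45 for ROBO1, -4.57 for ROBO2 and 1.68 for ROBO3. UNC5 receptors were all below 0, at -7.28 for UNC5A, -5.22 for UNC5B, -2.30 for UNC5C and -2.54 for UNC5D. The genes whose difference missed the threshold were EFNB2 and SEMA7A.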

How the results depend on the processing

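Every one of the 98 named log2 folds kept its direction in all 2143 fits under other settings, and 2047 of those fits kept the call as well. The 96 lost calls were all in the comparisons across the line labels. Leaving out 1 library at a time gave 45 to 48 guidance genes passing in SK-N-SH, 42 to 46 in the second line, 47 to 49 for the difference between lines, 44 to 47 between the controls, 20 to 25 between the second line knockdown and the SK-N-SH control, and 3 to 11 between SK-N-SH knockdown and the second line control, where all libraries gave 10. The cause of that last range, beyond the fewer libraries fitted, was not tested. The partner lists ranged over 37 to 39 and 39 to 42 (signalling) and 24 to 26 and 24 to 25 (co-receptors). Over the other settings the member counts, in the same order, were 37 to 48, 35 to 45, 39 to 48, 35 to 47, 17 to 27 and 8 to 12, the lowest of the first 4 with a minimum mean of 2 FPKM, which leaves 40 members to test.

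Replicate numbers did not pair the libraries: the deviations of same-numbered libraries correlated at -0.0751 to 0.102. With the replicate number as a block, 48, 44, 48, 44, 8 and 25 guidance genes passed in SK-N-SH, the second line, the difference, the controls, SK-N-SH knockdown against the second line control, and second line knockdown against the SK-N-SH control, and 38, 41, 25 and 24 genes of the partner lists. Planned count models were not run, and limma voom on the reads recovered from the FPKM was fitted in their place. Depth limits the genes with few reads in a group (SEMA6B, SEMA6D, EPHA8, ROBO2, UNC5A and UNC5D), whose log2 folds depend on the pseudocount.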
